A study of Mus musculus with 12 samples.

Results

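The genes described here encode the translation initiation factors (eIFs) and elongation factors (eEFs) of mouse liver, with the kinases, methyltransferases and binding proteins that carry an eIF or eEF name. They were chosen by symbol: every gene whose name on the array platform begins with Eif or Eef and a digit, leaving out Eif4ebp1, which is described with the other genes of the pathway. Of 18194 genes with a probe set of 1 symbol, 57 met that rule. They were measured by 152 probe sets, 41 of the 57 by more than 1, and each gene was represented by its brightest probe set over all 12 arrays. They were grouped into roles by symbol alone. There were 12 in the cap-binding group eIF4, 10 in eIF2 and eIF2B, 4 eIF2alpha kinases and 11 eIF3 subunits. A further 9 were in the group of start site and joining factors, 8 in elongation factor 1 and 3 in elongation factor 2. The groups thus also hold enzymes and partners of the factors, and Eif5a, Eif5a2 and Eif6 are in the start site group by symbol only. All 57 entered the tests, with no filter on low values. A further 4 matching symbols occurred only on probe sets shared with other genes and are not analysed here. Eif1, Eif2s1, Eif3g, Eif4g1 and Eef1g are not among the 57 genes.

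The series compared livers of LG2KO mice with livers of control mice, in the fasted state and after refeeding, to ask what glucose sensing in the liver contributes to the glucose response of beta cells. LG2KO is not spelled out in the labels and is read here as a liver knockout of the glucose transporter Glut2, the product of Slc2a2. There were 4 groups of 3 arrays: LG2KO refed, LG2KO fasted, control refed and control fasted, all on a mixed SV129XC57Bl/6 background. Each array carried RNA pooled from 3 animals, so n = 3 pools per group where all arrays are used, and the p-values measure the spread between pools. LG2KO mice are labelled as treated with tamoxifen and control mice carry no such label, so genotype and tamoxifen cannot be told apart. The labels do not say which promoter drives the deletion, how old or of which sex the animals were, or how long they were fasted and refed. LG2KO fasted arrays are called fasted in their titles and diet labels but fasted and refed in their source description, and the title and diet were followed.

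Translation begins when eIF4E binds the cap of an mRNA and, through the scaffold eIF4G, brings in the helicase eIF4A, which eIF4B and eIF4H stimulate. The small ribosomal subunit arrives with eIF3 and with eIF2, which carries the initiator tRNA in its GTP-bound form and must be recharged by the exchange factor eIF2B. In fed liver, insulin and amino acids activate the kinase mTOR, which releases eIF4E from its binding proteins, while phosphorylation of eIF2alpha by stress kinases blocks eIF2B. During elongation eEF1A delivers each aminoacyl-tRNA and eEF2 moves the ribosome along, unless it is phosphorylated by the kinase eEF2K.

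Slc2a2 averaged 3.74 ± 0.09 in LG2KO refed and 10.96 ± 0.32 in control refed livers on the log2 scale (SD, n = 3 each), and 3.90 ± 0.30 in LG2KO fasted and 10.64 ± 0.56 in control fasted livers. The mean of 6 hepatocyte markers lay between 13.57 and 13.77 on every array. Among marker lists of other cell types, exocrine pancreas reached 8.26 on a control fasted array and at most 5.78 on any array of the other groups. Adipose markers reached 7.47 on an LG2KO refed array and at most 6.15 on any array of the other groups. Apart from 1 endothelial marker, lower in control refed livers, no marker passed in any comparison of 2 groups. Their part in the results was not tested. In pooled whole-liver RNA, fewer cells of a type and less RNA per cell cannot be told apart. Arrays of 1 group correlated at 0.984 to 0.996, and control refed 1 and LG2KO fasted 3 stood apart: without them the lowest correlation was 0.994. Counts of genes that passed, medians and the values of some genes are therefore also given without this pair. In that fit control refed and LG2KO fasted hold only 2 pools each. Where 1 array is left out, its group also holds 2 pools.

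The pair weighed on the translation factors. Control refed 1 was the highest of the 12 arrays for 18 of the 57 genes (31.6%, against 12.9% of all genes), and LG2KO fasted 3 was the lowest for 22 (38.6%, against 13.9% of all genes). For 12 genes both held (21.1%, against 7.16% of all genes). These were Eef1a1, Eif1a, Eif1ax, Eif2ak3, Eif2s2, Eif2s3x, Eif3e, Eif4a1, Eif4e, Eif4g2, Eif4g3 and Eif5. On control refed 1, 13 of the 57 genes lay more than 0.5 log2 from their group's median, and on LG2KO fasted 3, 9 did. On LG2KO fasted 1, which stays in the fit without the pair, the number was 8, and on the remaining arrays it was 0 to 2. The difference between 3' and 5' probe sets of actin, a measure of RNA integrity, was 0.75 on control refed 1 and 0.76 on LG2KO fasted 3. On the other arrays it was 0.65 to 0.82. For Gapdh it was -0.05 on control refed 1, the highest of all arrays, and -0.07 on LG2KO fasted 3, beside -0.14 to -0.06 on the others. What sets control refed 1 and LG2KO fasted 3 apart was not tested.

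**Figure D1:**
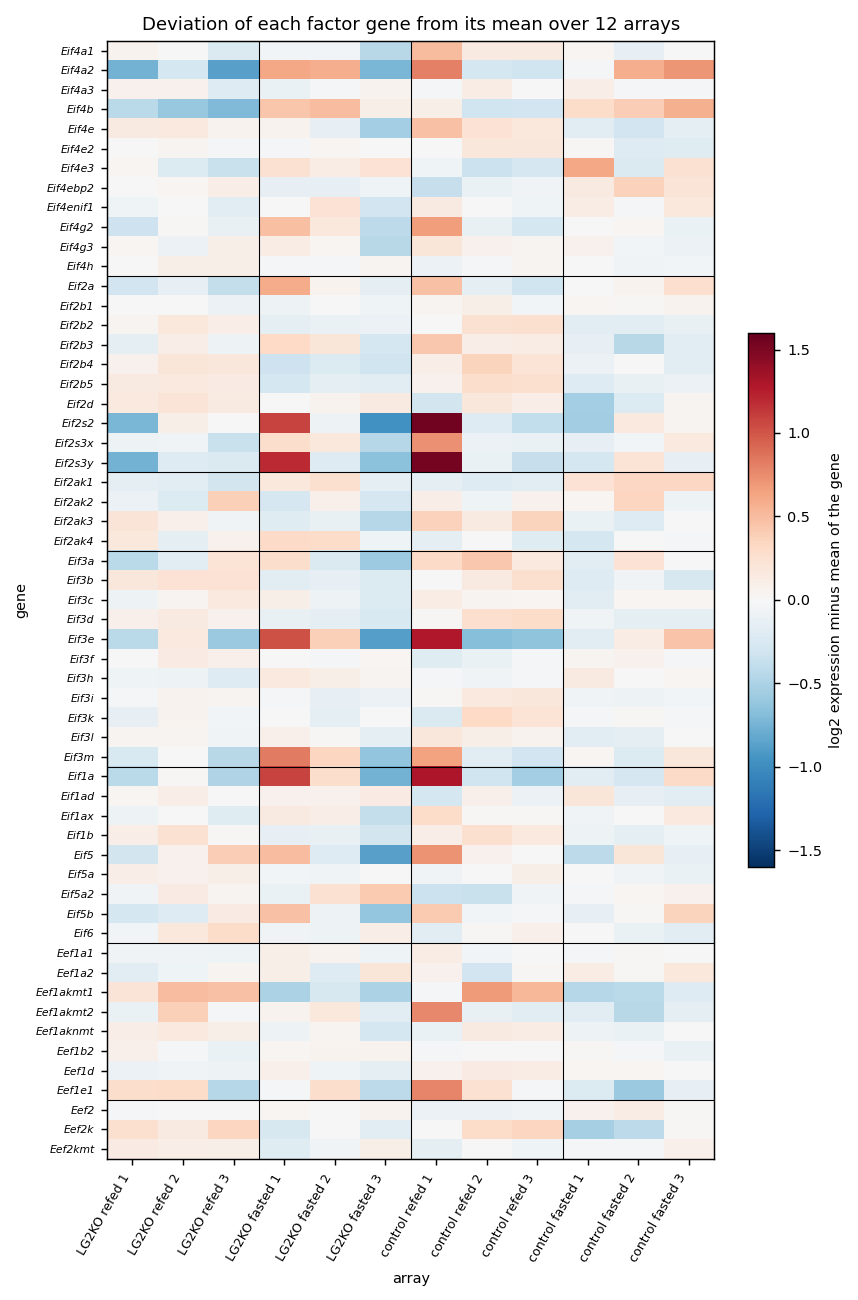
Deviation of each of the 57 translation factor genes (rows, grouped by role) from its own mean over the 12 arrays (columns), in log2 units. Red marks values above the mean of the gene and blue values below it; control refed 1 is the highest array for 18 genes and LG2KO fasted 3 the lowest for 22.

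Refeeding changed a small set of these genes, and eIF2B subunits made up 2 of the 4 that rose in LG2KO and 3 of the 6 that rose in control livers. In LG2KO livers 4 genes rose (Eef1akmt1, Eif2b4, Eif3b and Eif2b5) and 1 fell (Eif4b). In control livers 6 rose (Eef1akmt1, Eif4e, Eif2b5, Eif2b2, Eif3d and Eif2b4) and 4 fell (Eif4b, Eif2ak1, Eif4ebp2 and Eef2). A gene counts as risen or fallen where limma's moderated test gave an adjusted p below 0.05 after Benjamini-Hochberg adjustment over all 18194 genes. The 5 genes in LG2KO livers are 8.77% of the 57, against 7.05% of all genes (4.66% higher and 2.4% lower). The 10 genes in control livers are 17.5%, against 6.46% of all genes (3.29% higher and 3.17% lower). The control count was 0 without control refed 2 and 0 with only the control arrays in the fit (20 at an unadjusted p below 0.05 each), and 1 or 2 without control refed 3 or any control fasted array. The LG2KO count was 2 without LG2KO refed 2, LG2KO refed 3 or LG2KO fasted 1. Without the 2 arrays that stood apart, 16 passed in LG2KO livers (5 higher, 11 lower; 28.1%, against 17.5% of all genes, 7.74% higher and 9.78% lower) and 16 in control livers (12 higher, 4 lower; 28.1%, against 12.1% of all genes, 6.33% higher and 5.77% lower). The genes added in LG2KO livers were Eif3d, which rose, and Eef1a1, Eif1a, Eif2a, Eif2ak1, Eif2s3x, Eif3e, Eif3h, Eif3m, Eif4a2 and Eif4g2, which fell. Those added in control livers were Eef2k, Eif1b, Eif3b, Eif3i, Eif3k and Eif4e2, which rose, and Eif4a2, which fell, while Eef2 no longer passed. Several falls added in LG2KO livers leaned on LG2KO fasted 1. It read above LG2KO fasted 2 for Eif1a (7.34 against 6.54), Eif3e (9.63 against 8.99) and Eif2a (7.69 against 7.16). The same held for Eif3m (8.25 against 7.77) and Eif4g2 (11.25 against 10.93). The gap was smaller for the other added falls, and Eif2ak1 was lower on LG2KO fasted 1 (8.14 against 8.22). The median log2 change over the 57 genes was 0.02 in LG2KO and 0.11 in control livers, beside 0.01 and -0.01 over all genes. With the 2 arrays left out it was -0.03 in LG2KO livers (24 positive and 33 negative, beside 0.05 over all genes) and 0.04 in control livers (32 positive and 25 negative, beside 0.01 over all genes).

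**Figure D2:**
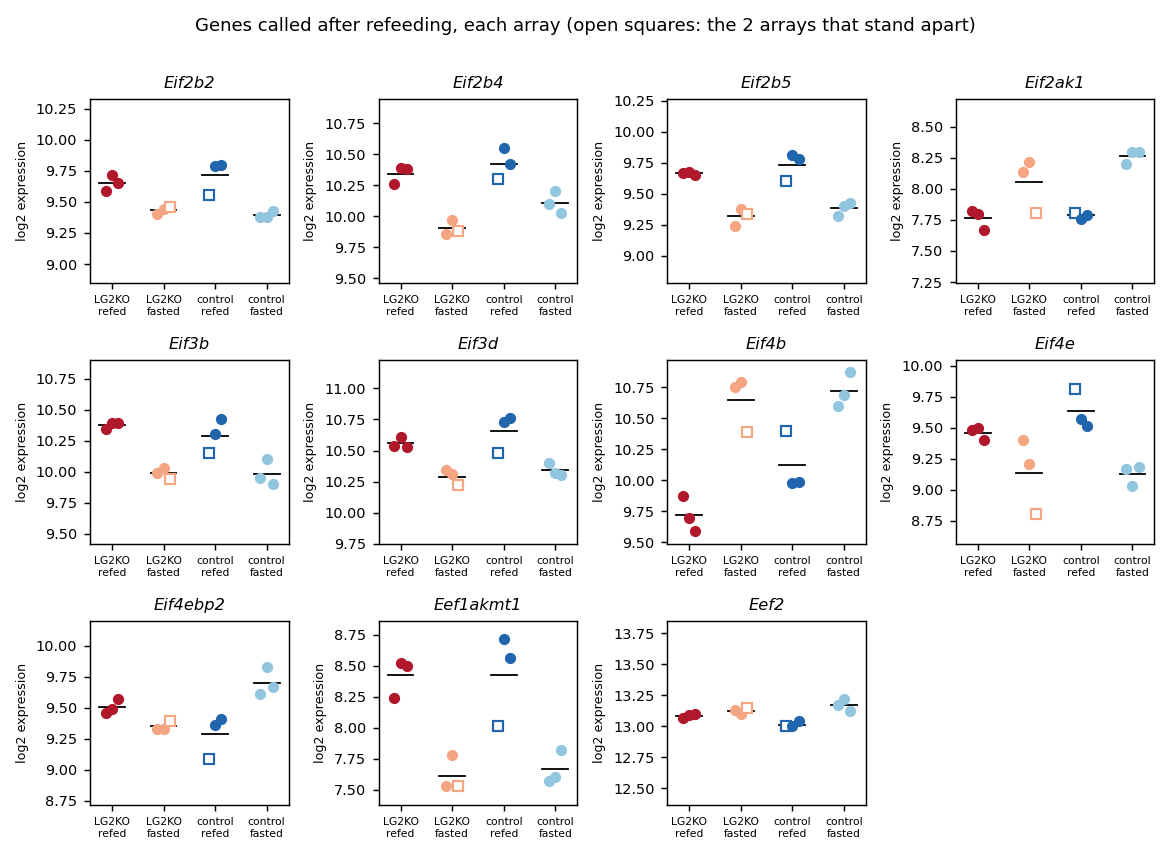
Log2 expression of the 11 genes that passed in at least 1 refeeding comparison, with 1 point per pooled array, a bar at the mean of each group of 3, and open squares for control refed 1 and LG2KO fasted 3. All panels span the same number of log2 units. Eif4b lies lower and Eif2b4, Eif2b5 and Eef1akmt1 lie higher in refed than in fasted livers of both genotypes, with no overlap between the groups.

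eIF2B has 5 subunits, and the 2 that rose in both genotypes were Eif2b4 (delta) and Eif2b5 (epsilon, which catalyses the exchange of GDP for GTP on eIF2). Eif2b4 read 10.26, 10.39 and 10.38 in LG2KO refed livers, against 9.86, 9.97 and 9.88 in LG2KO fasted livers. It read 10.30, 10.55 and 10.42 in control refed livers, against 10.10, 10.20 and 10.03 in control fasted livers. Every refed array was above every fasted array of its genotype, and the rise was 0.44 ± 0.09 in LG2KO (log2 ± SE, adjusted p = 0.00812) and 0.31 ± 0.09 in control livers (adjusted p = 0.0494). Eif2b5 read 9.67, 9.68 and 9.65 in LG2KO refed livers, against 9.24, 9.38 and 9.34 in LG2KO fasted livers. In control refed livers it read 9.60, 9.81 and 9.78, against 9.32, 9.40 and 9.43 in control fasted livers. The groups again did not overlap, and the rise was 0.35 ± 0.09 in each genotype (adjusted p = 0.0277 in LG2KO and 0.0293 in control livers). The mean of the 2 probe sets of Eif2b5 gave smaller rises of 0.22 and 0.24 that did not pass (adjusted p = 0.215 and 0.194).

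The beta subunit Eif2b2 passed in control livers. It read 9.56, 9.79 and 9.80 in control refed livers, against 9.38, 9.38 and 9.43 in control fasted livers, a rise of 0.32 ± 0.09 (adjusted p = 0.0486). In LG2KO refed livers it read 9.59, 9.72 and 9.65, against 9.40, 9.44 and 9.46 in LG2KO fasted livers, a difference of 0.22 ± 0.09 that did not pass (adjusted p = 0.183). The refed arrays lay above the fasted arrays in both genotypes, and the difference between the genotypes did not pass (-0.10 ± 0.12, adjusted p = 0.99).

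The other 2 subunits did not pass. Eif2b1, the regulatory alpha subunit, varied between 8.46 and 8.64 over all 12 arrays, with log2 differences of 0.02 in LG2KO and 0.00 in control livers. Eif2b3 (gamma) differed by -0.11 ± 0.16 in LG2KO livers (adjusted p = 0.846) and by 0.47 ± 0.16 in control livers (adjusted p = 0.137), where the 3 refed arrays, at 8.08, 7.75 and 7.77, lay above the 3 fasted arrays, at 7.52, 7.20 and 7.47. Without the pair of arrays its differences were -0.29 in LG2KO and 0.36 in control livers (adjusted p = 0.124 and 0.0786).

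These calls depended on single arrays to different degrees. Eif2b4 passed in LG2KO livers with any 1 of the 12 arrays left out (log2 rise 0.42 to 0.48, adjusted p 0.00304 to 0.0428). Eif2b5 in LG2KO livers lost its call without LG2KO refed 1, 2 or 3 or LG2KO fasted 1 or 2 (0.31 to 0.38 over all 12, highest adjusted p = 0.125). In control livers Eif2b5 lost its call without control refed 2 or 3 or any control fasted array (0.30 to 0.41 over all 12, highest adjusted p = 0.122). Eif2b2 and Eif2b4 in control livers kept their calls only with control refed 1 as the array left out (0.28 to 0.40 and 0.25 to 0.38 over all 12, highest adjusted p = 0.179 and 0.198). The mean of the 3 probe sets of Eif2b2 gave 0.22 in control livers and did not pass (adjusted p = 0.331).

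The members of eIF2 itself did not pass. Eif2s2, which encodes the beta subunit, read 7.26, 8.08 and 8.0 in LG2KO refed livers, against 9.07, 7.91 and 7.02 in LG2KO fasted livers. It read 9.54, 7.78 and 7.60 in control refed livers, against 7.44, 8.15 and 8.04 in control fasted livers. The highest value was on control refed 1 and the lowest on LG2KO fasted 3, and the log2 differences after refeeding were -0.22 ± 0.53 and 0.43 ± 0.53, or -0.71 and -0.19 without these arrays. The gamma subunit genes Eif2s3x and Eif2s3y spanned 9.04 to 10.23 and 4.71 to 6.99, each with its highest value on control refed 1. Without the pair of arrays Eif2s3x fell by 0.40 in LG2KO refed livers (adjusted p = 0.0335), and so did Eif2a, an initiation factor distinct from the eIF2 alpha subunit, by 0.60 (adjusted p = 0.0223). With all 12 arrays these differences were -0.17 and -0.44 (adjusted p = 0.835 and 0.319). Eif2d, which can also deliver the initiator tRNA, differed by 0.10 in LG2KO and 0.24 in control livers and did not pass.

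Of the 4 kinases that phosphorylate eIF2alpha, Eif2ak1 fell in control livers. Eif2ak1, the kinase HRI, which responds to low heme, read 7.81, 7.76 and 7.79 in control refed livers, against 8.20, 8.30 and 8.30 in control fasted livers. The groups were far apart relative to their spread, and the fall was 0.48 ± 0.12 on the log2 scale, or 1.39-fold (adjusted p = 0.0265). In LG2KO refed livers it read 7.82, 7.80 and 7.67, against 8.14, 8.22 and 7.81 in LG2KO fasted livers. Here LG2KO fasted 3 overlapped the refed arrays, and the difference of -0.29 ± 0.12 did not pass (adjusted p = 0.183). With LG2KO fasted 3 left out, Eif2ak1 fell by 0.42 in LG2KO livers (adjusted p = 0.0284). The fall in control livers lost its call without control refed 2 or 3 or any control fasted array (-0.51 to -0.46, highest adjusted p = 0.0961), and the mean of its 5 probe sets gave -0.28 (adjusted p = 0.0683).

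Eif2ak3, the endoplasmic reticulum kinase PERK, went the other way without passing. It read 6.81, 6.69 and 6.55 in LG2KO refed livers, against 6.41, 6.49 and 6.15 in LG2KO fasted livers (0.33 ± 0.13, adjusted p = 0.168). It read 6.98, 6.75 and 6.96 in control refed livers, against 6.50, 6.40 and 6.61 in control fasted livers (0.40 ± 0.13, adjusted p = 0.0988). The refed arrays lay above the fasted arrays in both genotypes. Eif2ak4, the amino acid sensor GCN2, differed by -0.14 and 0.00, and Eif2ak2, the RNA-activated kinase PKR, by 0.17 and -0.06 in LG2KO and control livers. They read 4.42 to 5.0 and 3.68 to 4.33 on the 12 arrays, and the deposited values give no background level to set these against.

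**Figure D3:**
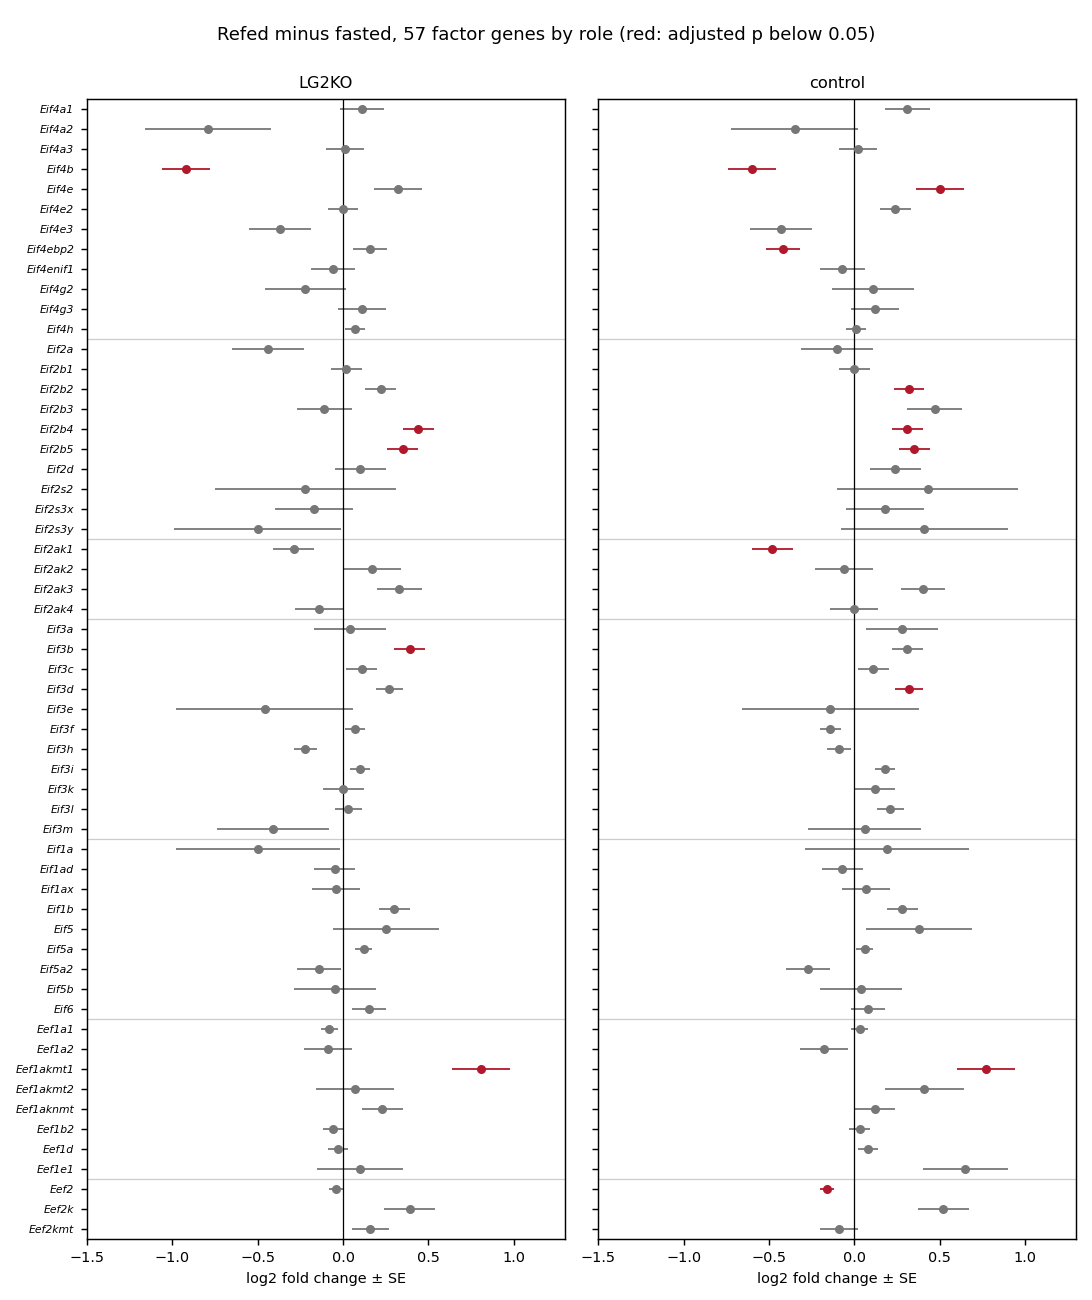
Log2 difference between refed and fasted livers (± SE of the fit, 3 pools a group) for the 57 genes, by role from top to bottom, in LG2KO livers on the left and control livers on the right. Red points have an adjusted p below 0.05: 5 genes in LG2KO and 10 in control livers, with Eif4b farthest to the left and Eef1akmt1 farthest to the right in both.

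With all 12 arrays, Eif4b showed the largest fall among the 57 genes in both genotypes. It encodes a cofactor of the helicase eIF4A. It read 9.87, 9.70 and 9.59 in LG2KO refed livers, against 10.75, 10.79 and 10.39 in LG2KO fasted livers. In control refed livers it read 10.40, 9.98 and 9.99, against 10.60, 10.69 and 10.87 in control fasted livers. No refed array reached a fasted array of its genotype, and control refed 1 came closest. Eif4b fell by 0.92 ± 0.14 on the log2 scale, or 1.89-fold, in LG2KO livers (adjusted p = 0.00176), and by 0.60 ± 0.14, or 1.51-fold, in control livers (adjusted p = 0.0238). Without the pair of arrays Eif4b fell by 1.05 in LG2KO and by 0.74 in control livers (adjusted p = 0.000103 and 0.000715). The differences of all 3 of its probe sets were negative in each genotype, from -0.92 to -0.55 in LG2KO and from -0.63 to -0.60 in control livers. The call in LG2KO livers held with any 1 array left out (highest adjusted p = 0.0118), and the call in control livers was lost without control refed 2 or 3 or control fasted 2 or 3 (-0.61 to -0.52, highest adjusted p = 0.104).

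Eif4e, the cap-binding protein, rose in control livers. It read 9.81, 9.57 and 9.51 in control refed livers, against 9.17, 9.03 and 9.18 in control fasted livers, a rise of 0.50 ± 0.14 (adjusted p = 0.04995). In LG2KO refed livers it read 9.48, 9.50 and 9.40, against 9.40, 9.21 and 8.80 in LG2KO fasted livers, a difference of 0.32 ± 0.14 that did not pass (adjusted p = 0.229). The control groups lay well apart, whereas LG2KO refed 3 and LG2KO fasted 1 were almost level. The call in control livers sat at the threshold: it was lost when any array other than LG2KO fasted 1 or 3 was left out (0.41 to 0.56, highest adjusted p = 0.175). Without the pair of arrays Eif4e rose by 0.41 in control livers (adjusted p = 0.011), beside 0.15 in LG2KO livers (adjusted p = 0.273). Of its 4 probe sets, 3 had positive differences in control livers and 1, among the dimmer ones, had -0.06.

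The helicase genes Eif4a1 and Eif4a2 did not pass with all arrays. Eif4a2 read 9.13, 9.60 and 9.02 in LG2KO refed livers, against 10.50, 10.47 and 9.15 in LG2KO fasted livers, and LG2KO fasted 3 lay among the refed arrays. In control refed livers it read 10.69, 9.60 and 9.56, against 9.85, 10.46 and 10.59 in control fasted livers, and control refed 1 was the highest of all 12 arrays. The differences were -0.79 ± 0.37 and -0.35 ± 0.37 (adjusted p = 0.299 and 0.777). Without the pair of arrays Eif4a2 fell by 1.23 in LG2KO and by 0.72 in control livers (adjusted p = 0.00224 and 0.0419), the first also with only LG2KO fasted 3 left out (adjusted p = 0.0358). Eif4a1, at 11.22 to 12.17 over all arrays, differed by 0.11 ± 0.13 and 0.31 ± 0.13 (adjusted p = 0.783 and 0.22), or -0.02 and 0.19 without the pair.

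Eif4ebp2, a 4E-BP that holds eIF4E away from eIF4G, fell in control livers. It read 9.46, 9.49 and 9.57 in LG2KO refed livers, against 9.33, 9.33 and 9.39 in LG2KO fasted livers. It read 9.09, 9.36 and 9.41 in control refed livers, against 9.61, 9.83 and 9.67 in control fasted livers. Refed arrays lay above fasted arrays in LG2KO livers and below them in control livers. The difference was 0.16 ± 0.10 in LG2KO livers (adjusted p = 0.506), and Eif4ebp2 fell by 0.42 ± 0.10 in control livers (adjusted p = 0.0268). The control call was lost without control refed 2 or control fasted 2 or 3 (-0.45 to -0.35, highest adjusted p = 0.124) and with the mean of its 5 probe sets (-0.35, adjusted p = 0.0683). The test of the difference between genotypes gave 0.57 ± 0.14 and did not pass (adjusted p = 0.544). Eif4enif1, which carries eIF4E into the nucleus, differed by -0.06 and -0.07. The remaining 6 members of the eIF4 group, Eif4a3, Eif4e2, Eif4e3, Eif4g2, Eif4g3 and Eif4h, differed by -0.37 to 0.11 in LG2KO and by -0.43 to 0.24 in control livers, and none passed with all arrays.

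Of the 11 eIF3 subunits, Eif3b rose in LG2KO and Eif3d in control livers. Eif3b, a core subunit, read 10.34, 10.39 and 10.39 in LG2KO refed livers, against 9.99, 10.03 and 9.94 in LG2KO fasted livers, a rise of 0.39 ± 0.09 (adjusted p = 0.0169). It read 10.15, 10.30 and 10.42 in control refed livers, against 9.95, 10.10 and 9.90 in control fasted livers, a difference of 0.31 ± 0.09 just short of the threshold (adjusted p = 0.0533). Eif3d, a subunit that can itself bind the cap of certain mRNAs, read 10.48, 10.73 and 10.76 in control refed livers, against 10.40, 10.32 and 10.30 in control fasted livers, a rise of 0.32 ± 0.08 (adjusted p = 0.0433). In LG2KO refed livers it read 10.54, 10.61 and 10.53, against 10.34, 10.31 and 10.22 in LG2KO fasted livers, a difference of 0.27 ± 0.08 (adjusted p = 0.0837). For both genes the refed arrays lay above the fasted arrays in both genotypes. With control refed 1 left out, Eif3b also passed in control livers (0.38, adjusted p = 0.0135) and Eif3d in LG2KO livers (0.27, adjusted p = 0.0187). Eif3b lost its LG2KO call without LG2KO refed 2 or 3 or LG2KO fasted 1 (highest adjusted p = 0.0673). Eif3d kept its control call only with control refed 1 or LG2KO fasted 3 among the arrays left out singly (0.27 to 0.41, highest adjusted p = 0.171), its second probe set differed by -0.14, and the mean of both gave 0.09 (adjusted p = 0.8).

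The large subunits Eif3a and Eif3c did not pass. Eif3a differed by 0.04 ± 0.21 and 0.28 ± 0.21 after refeeding in LG2KO and control livers, and Eif3c by 0.11 ± 0.09 in each. Eif3e showed the widest spread of the group: 8.18, 8.77 and 8.01 in LG2KO refed livers, against 9.63, 8.99 and 7.73 in LG2KO fasted livers, and 9.89, 7.92 and 7.97 in control refed livers, against 8.42, 8.72 and 9.06 in control fasted livers. Its 2 extremes were LG2KO fasted 3 and control refed 1. With all arrays its differences were -0.46 ± 0.52 in LG2KO (adjusted p = 0.775) and -0.14 ± 0.52 in control livers (adjusted p = 0.954). Without that pair, Eif3e fell by 0.99 (adjusted p = 0.0172), Eif3m by 0.82 (adjusted p = 0.00806) and Eif3h by 0.25 (adjusted p = 0.0331) in LG2KO refed livers. In control livers Eif3b, Eif3d, Eif3i and Eif3k rose by 0.23 to 0.41 without it. Of the 2 LG2KO fasted arrays left, LG2KO fasted 1 was the higher for Eif3e and Eif3m (8.25 against 7.77 for Eif3m). With all arrays Eif3f, Eif3h, Eif3i, Eif3k, Eif3l and Eif3m differed by -0.41 to 0.10 in LG2KO and by -0.14 to 0.21 in control livers, and none passed.

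Promoters are shown for 5 of the genes that changed, picked by motif. All 4 with a match to the ETS family motif are shown, beside 1 of the 6 without it: Eif4b, with the largest fall. The others without a match were Eif2b5, Eif3b and Eif4e, which rose, and Eef2 and Eif4ebp2, which fell. The choice therefore gives no measure of how motif and change go together. The sequences are 100 bases from RefSeq (GRCm38.p6), given 5' to 3' along the gene, from 70 bases before the start to 30 bases into the transcript, or for Eif3d from position -117 to -18. The first base of the transcript is position 1 and there is no position 0. Capitals mark CCGGAAGT or its reverse complement. They lie at chr12:85219411-85219510 (plus strand, Eif2b2), chr5:31193110-31193209 (minus strand, Eif2b4), chr15:77970842-77970941 (minus strand, Eif3d), chr5:143817722-143817821 (plus strand, Eif2ak1) and chr15:102073703-102073802 (plus strand, Eif4b).
Eif2b2: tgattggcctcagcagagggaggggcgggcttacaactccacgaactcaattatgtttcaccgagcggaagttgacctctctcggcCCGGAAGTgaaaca
Eif2b4: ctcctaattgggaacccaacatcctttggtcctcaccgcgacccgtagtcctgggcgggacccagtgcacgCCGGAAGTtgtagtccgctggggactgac
Eif3d: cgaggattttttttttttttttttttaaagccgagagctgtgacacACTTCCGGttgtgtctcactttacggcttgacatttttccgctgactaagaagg
Eif2ak1: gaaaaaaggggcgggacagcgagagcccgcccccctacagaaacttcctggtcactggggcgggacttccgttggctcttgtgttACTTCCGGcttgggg
Eif4b: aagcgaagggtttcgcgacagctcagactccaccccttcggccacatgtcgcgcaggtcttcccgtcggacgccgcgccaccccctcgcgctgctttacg

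RefSeq promoters of 250 bases before to 50 bases after a start were matched for 47 of the 57 genes (62 starts). CCGGAAGT, read on both strands, occurred at 17.7% of these starts, against 3.89% of all 32851 starts, and in 9 of the 47 genes. The E-box CACGTG, which reads the same on both strands and whose letters cannot overlap those of the ETS match, occurred at 22.6%, against 7.15% of all starts, and in 12 genes. G and C made up a median of 62.2% of the bases of these starts, against 52.7% of all starts, so base composition differed too. The FOXO letters GTAAACA were found at 1.61%, against 3.65% of all starts, and the amino acid response letters TGATGNAA at 3.23%, against 3.97%, each read on both strands. These 2 motifs can overlap, but no gene of the set held both. A start on C followed by 4 pyrimidines, as in mRNAs with a terminal oligopyrimidine tract, was found at 3.23%, against 2.51%. Of the 9 genes with the ETS letters, 4 passed after refeeding in at least 1 genotype: Eif2b2, Eif2b4 and Eif3d rose and Eif2ak1 fell. Of the 38 without them, 6 passed. The median log2 change was 0.03 in LG2KO and 0.21 in control livers with the letters, and 0.06 and 0.09 without. These matches are descriptions of the letters and not of bound sites.

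Among the 9 start site and joining factors none passed in either genotype with all arrays. Eif1a, which takes part in scanning for the start codon, read 5.82, 6.27 and 5.78 in LG2KO refed livers, against 7.34, 6.54 and 5.50 in LG2KO fasted livers. In control refed livers it read 7.55, 5.94 and 5.71, against 6.08, 5.99 and 6.56 in control fasted livers. It was highest on control refed 1 and lowest on LG2KO fasted 3, and its differences were -0.50 ± 0.48 in LG2KO (adjusted p = 0.714) and 0.19 ± 0.48 in control livers (adjusted p = 0.928). Without those arrays it fell by 0.98 in LG2KO refed livers (adjusted p = 0.0174), beside -0.39 in control livers (adjusted p = 0.38). Eif5, which triggers GTP hydrolysis by eIF2, spanned 8.38 to 9.97 with the same 2 arrays at its ends, and differed by 0.25 ± 0.31 and 0.38 ± 0.31, or -0.08 and 0.16 without them. Eif5b, which joins the ribosomal subunits, differed by -0.05 ± 0.24 and 0.04 ± 0.24. Eif6, which keeps the large subunit free until it is needed, differed by 0.15 ± 0.10 and 0.08 ± 0.10 in LG2KO and control livers. Eif5a, a factor that carries the modified amino acid hypusine, stayed within 13.23 to 13.44 on all arrays (0.12 ± 0.05 and 0.06 ± 0.05). Eif1ad, Eif1ax, Eif1b and Eif5a2 differed by -0.14 to 0.30 in LG2KO and by -0.27 to 0.28 in control livers.

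In the elongation factor 1 group, Eef1akmt1 showed the largest rise among the 57 genes in both genotypes. It encodes a methyltransferase that modifies a lysine of eEF1A. It read 8.24, 8.52 and 8.50 in LG2KO refed livers, against 7.53, 7.78 and 7.53 in LG2KO fasted livers. It read 8.01, 8.71 and 8.56 in control refed livers, against 7.57, 7.60 and 7.82 in control fasted livers. The groups did not overlap in either genotype. The rise was 0.81 ± 0.17, or 1.75-fold, in LG2KO livers (adjusted p = 0.0116) and 0.77 ± 0.17, or 1.70-fold, in control livers (adjusted p = 0.0162). Of its 4 probe sets 1 had the opposite sign, at -0.14 and -0.30, and the mean of all 4 gave rises of 0.47 (adjusted p = 0.0379) and 0.44 (adjusted p = 0.0558). The call in LG2KO livers was lost without LG2KO refed 2 or 3 or LG2KO fasted 1 (0.76 to 0.77, highest adjusted p = 0.0567), and the call in control livers without control refed 2 or 3 or control fasted 1 or 2 (0.62 to 0.73, highest adjusted p = 0.0768).

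The tRNA-carrying factor Eef1a1 and its exchange factors did not pass with all arrays. Eef1a1 stayed between 13.61 and 13.80 on the 12 arrays. Its refeeding differences were -0.08 ± 0.05 and 0.03 ± 0.05, and without the pair of arrays it fell by 0.13 in LG2KO refed livers (adjusted p = 0.0488). Eef1a2, the muscle and nerve form, read 6.45 to 6.96. Eef1b2 differed by -0.06 ± 0.06 and 0.03 ± 0.06, and Eef1d by -0.03 ± 0.06 and 0.08 ± 0.06, in LG2KO and control livers. Eef1e1, a partner of aminoacyl-tRNA synthetases, differed by 0.10 ± 0.25 and 0.65 ± 0.25 (adjusted p = 0.934 and 0.198), or -0.08 and 0.42 without the pair. The methyltransferase genes Eef1akmt2 and Eef1aknmt differed by 0.07 and 0.23 in LG2KO and by 0.41 and 0.12 in control livers, and neither passed.

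Eef2, the translocase, fell slightly in control livers. It read 13.00, 13.00 and 13.04 in control refed livers, against 13.17, 13.22 and 13.12 in control fasted livers, a fall of 0.16 ± 0.04, or 1.11-fold (adjusted p = 0.0496). In LG2KO refed livers it read 13.07, 13.09 and 13.10, against 13.13, 13.10 and 13.15 in LG2KO fasted livers (-0.04 ± 0.04, adjusted p = 0.752). The control groups did not overlap. The call was lost with any 1 of the 12 arrays left out (-0.18 to -0.13, adjusted p 0.0593 to 0.195), and the mean of its 2 probe sets gave -0.08 (adjusted p = 0.81). Eef2k, the kinase that inhibits eEF2, read 7.45, 7.34 and 7.53 in LG2KO refed livers, against 6.93, 7.19 and 7.01 in LG2KO fasted livers (0.39 ± 0.15, adjusted p = 0.17). It read 7.20, 7.48 and 7.53 in control refed livers, against 6.66, 6.77 and 7.21 in control fasted livers (0.52 ± 0.15, adjusted p = 0.0648). The refed arrays were higher apart from control refed 1, which was level with control fasted 3. With control refed 1 or control fasted 3 left out, Eef2k rose in control livers (0.62 and 0.69, adjusted p = 0.032 and 0.0185). With any other single array left out it did not pass there (0.41 to 0.69 over all 12, highest adjusted p = 0.26). The mean of its 3 probe sets gave 0.28 in control livers (adjusted p = 0.182). Eef2kmt, which methylates eEF2, differed by 0.16 and -0.09.

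The refeeding changes of the genotypes rest on separate arrays and can be set side by side. Over the 57 genes they had the same sign for 40, with Pearson r = 0.6 and Spearman rho = 0.52 across genes, beside r = 0.68 over all genes. Genes are not independent replicates, and no test is attached to these values. Of the 5 genes called in LG2KO livers, 4 (80%) were called in control livers too, which is 40% of the 10 control calls: Eef1akmt1, Eif2b4, Eif2b5 and Eif4b. Of the 11 genes called in either, 10 had the same sign in both, and Eif4ebp2 was the exception. Without the pair of arrays, r was 0.8 and 8 genes were called in both (50% of the calls in each genotype). Counted by arrays alone, 15 genes were higher in all 3 LG2KO refed than in all 3 LG2KO fasted arrays (26.3%, against 14.1% of all genes) and 3 lower (5.26%, against 8.38%). In control livers 16 were higher (28.1%, against 9.64% of all genes) and 7 lower (12.3%, against 10.8%).

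LG2KO and control livers were next compared within a feeding state. After refeeding none of the 57 genes passed limma's test (0 of 57, against 0.379% of all genes, 0.291% higher and 0.0879% lower), with 6 at an unadjusted p below 0.05 (10.5%, against 9.13% of all genes). In the fasted state none passed either (0 of 57, against 0.396% of all genes, 0.308% higher and 0.0879% lower), with 2 at an unadjusted p below 0.05 (3.51%, against 5.2% of all genes). Without the 2 arrays that stood apart the counts remained 0 and 0 (against 0.286% and 0.511% of all genes), with 7 and 9 at an unadjusted p below 0.05 (12.3% and 15.8%, against 10% and 13.1% of all genes). After refeeding 41 of the 57 differences were negative and the median was -0.09, beside 0.02 over all genes. With the pair left out 35 were negative and the median was -0.05, beside 0.00 over all genes. In the fasted state 30 were negative and the median was -0.02, beside 0.00 over all genes. With the pair left out 19 were negative and 38 positive, and the median was 0.05, beside -0.02 over all genes.

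**Figure D4:**
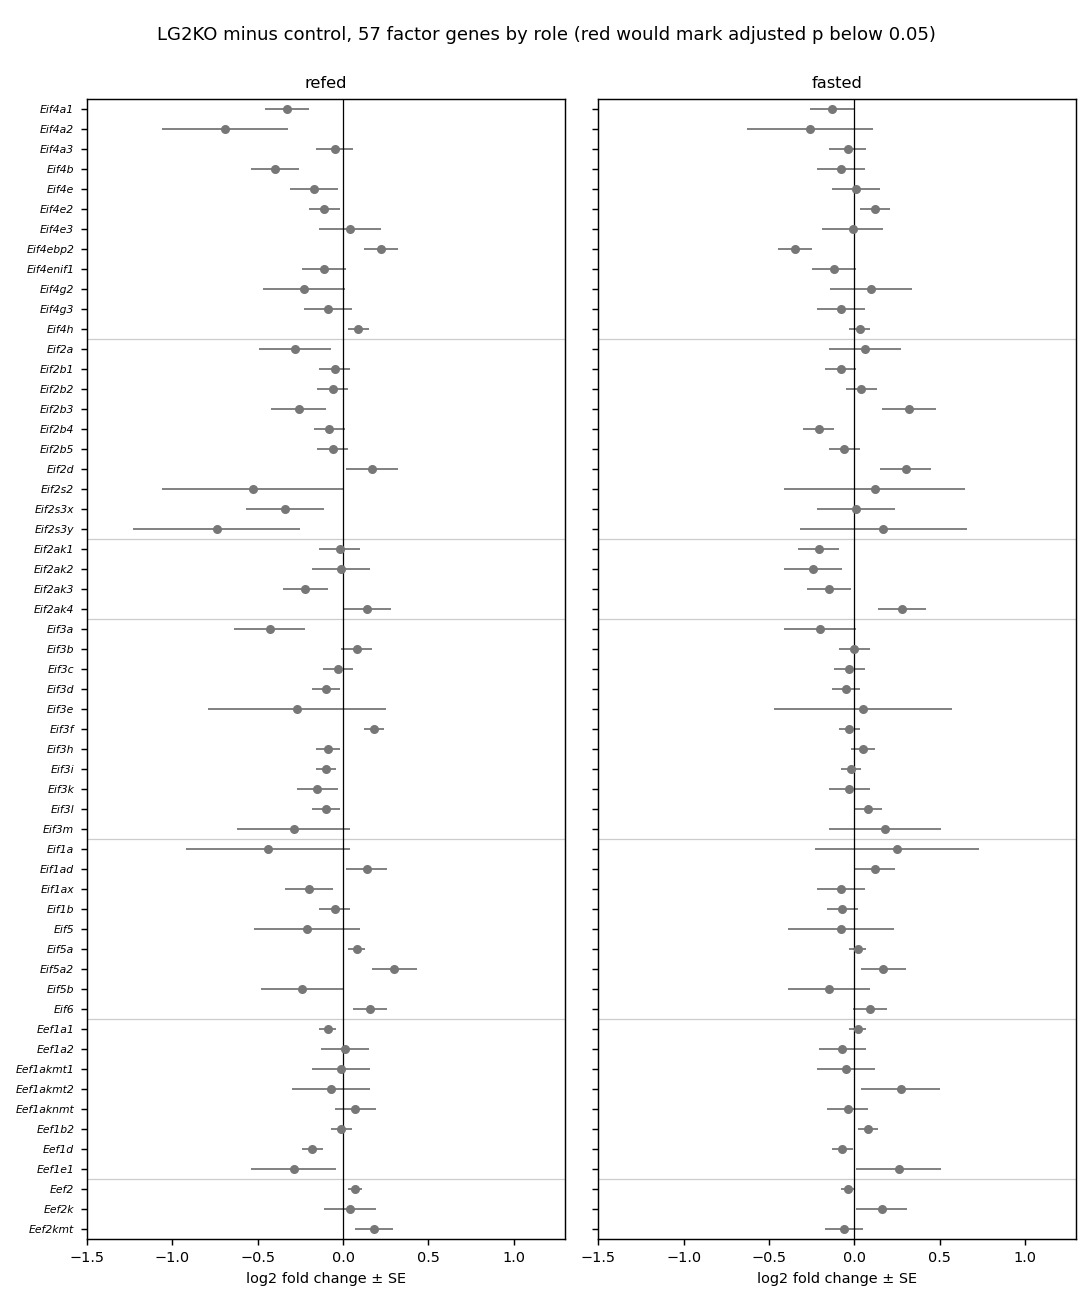
Log2 difference between LG2KO and control livers (± SE of the fit, 3 pools a group) for the 57 genes by role, refed livers on the left and fasted livers on the right. No gene has an adjusted p below 0.05; after refeeding 41 of the 57 points lie left of 0, and Eif2s3y lies farthest to the left at -0.74.

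Of the 6 genes at an unadjusted p below 0.05 after refeeding, 3 were higher and 3 lower in LG2KO than in control livers. The smallest adjusted p of the 57 in limma's test, 0.35, belonged to an eIF3 gene. Of the 57 genes, Eif4b had the smallest unadjusted p among those with lower values in LG2KO refed livers (0.0139). Its means were 9.72 ± 0.14 in LG2KO refed and 10.12 ± 0.24 in control refed livers (SD, n = 3 each), and the groups did not overlap. The difference was -0.40 ± 0.14 (95% interval -0.71 to -0.10, adjusted p = 0.355), and without the pair of arrays it was -0.26 (adjusted p = 0.383). Eif4a1 averaged 11.60 ± 0.15 in LG2KO refed and 11.93 ± 0.20 in control refed livers, a difference of -0.33 ± 0.13 (adjusted p = 0.425). Eef1d averaged 11.41 ± 0.02 in LG2KO refed and 11.58 ± 0.03 in control refed livers (-0.18 ± 0.06, adjusted p = 0.388). Eif4ebp2 averaged 9.51 ± 0.06 in LG2KO refed and 9.29 ± 0.17 in control refed livers (0.22 ± 0.10, adjusted p = 0.538). In the fasted state it averaged 9.35 ± 0.04 in LG2KO and 9.70 ± 0.12 in control livers (-0.35 ± 0.10, adjusted p = 0.326). In each state the Eif4ebp2 arrays of the genotypes did not overlap, in opposite directions.

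For the eIF2B subunits the intervals give how far the genotypes could differ. Eif2b3 had the widest: it differed by -0.26 after refeeding (95% interval -0.61 to 0.10) and by 0.32 in the fasted state (-0.03 to 0.68, adjusted p = 0.9999). With the pair left out its fasted difference was 0.50 (0.24 to 0.77) and did not pass either (adjusted p = 0.124). Eif2b5 differed by -0.06 in each state, with 95% intervals of -0.25 to 0.12. Eif2b4 differed by -0.08 after refeeding (-0.27 to 0.11) and by -0.21 in the fasted state (-0.39 to -0.02, adjusted p = 0.869), where its LG2KO arrays lay below the control arrays. Eif2b2 differed by -0.06 (-0.25 to 0.13) and 0.04 (-0.15 to 0.22), and Eif2b1 by -0.05 (-0.24 to 0.13) and -0.08 (-0.27 to 0.11). The largest refed differences by size, -0.74 for Eif2s3y and -0.69 for Eif4a2, had intervals of -1.81 to 0.32 and -1.51 to 0.12. By arrays alone, 5 genes were higher in all 3 LG2KO refed than in all 3 control refed arrays (8.77%, against 10.3% of all genes) and 8 lower (14%, against 5.19%). In the fasted state 1 was higher (1.75%, against 4.67%) and 3 lower (5.26%, against 6.11%).

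The difference between the genotypes' refeeding changes was tested directly. None of the 57 genes passed (0 of 57, against 0.0055% of all genes), with 3 at an unadjusted p below 0.05 (5.26%, against 4.73% of all genes): Eif4ebp2, Eif3f at 0.21 ± 0.09 and Eif2b3 at -0.58 ± 0.23. The values ran from -0.92 for Eif2s3y to 0.57 for Eif4ebp2, with 35 of 57 below 0 and a median of -0.09, beside 0.02 over all genes. With the pair left out 43 were below 0 and the median was -0.15, beside 0.01 over all genes, again with no gene passing and 6 at an unadjusted p below 0.05 (10.5%, against 8.37% of all genes).

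Other genes of the pathway were read from a list of 57 further symbols, of which 54 were measured. After refeeding 6 rose and 3 fell in LG2KO livers (over all genes 4.66% and 2.4%), and 4 rose and 2 fell in control livers (over all genes 3.29% and 3.17%). Without the pair of arrays 8 rose and 16 fell in LG2KO livers (7.74% and 9.78%), and 7 rose and 6 fell in control livers (6.33% and 5.77%). Eif4ebp1, which encodes another 4E-BP, read 10.35, 10.40 and 10.60 in LG2KO refed livers, against 10.90, 10.87 and 11.11 in LG2KO fasted livers. It read 9.72, 10.32 and 10.21 in control refed livers, against 10.90, 10.78 and 10.90 in control fasted livers. It fell by 0.51 ± 0.14 in LG2KO and by 0.78 ± 0.14 in control livers (adjusted p = 0.0421 and 0.0042), with no overlap between refed and fasted arrays. Mknk2, a kinase of eIF4E, fell by 0.55 ± 0.10 and 0.97 ± 0.10 (adjusted p = 0.00565 and 9.77e-05). Mtor fell by 0.36 ± 0.10 in LG2KO livers (adjusted p = 0.0377), beside -0.31 ± 0.10 in control livers (adjusted p = 0.0855). Rptor, the mTOR partner raptor, rose by 0.45 ± 0.11 in LG2KO livers (adjusted p = 0.0329), beside 0.28 ± 0.11 in control livers (adjusted p = 0.214). Without the pair of arrays both genes also passed in control livers, Mtor at -0.35 and Rptor at 0.39 (adjusted p = 0.0362 and 0.0223).

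**Figure D5:**
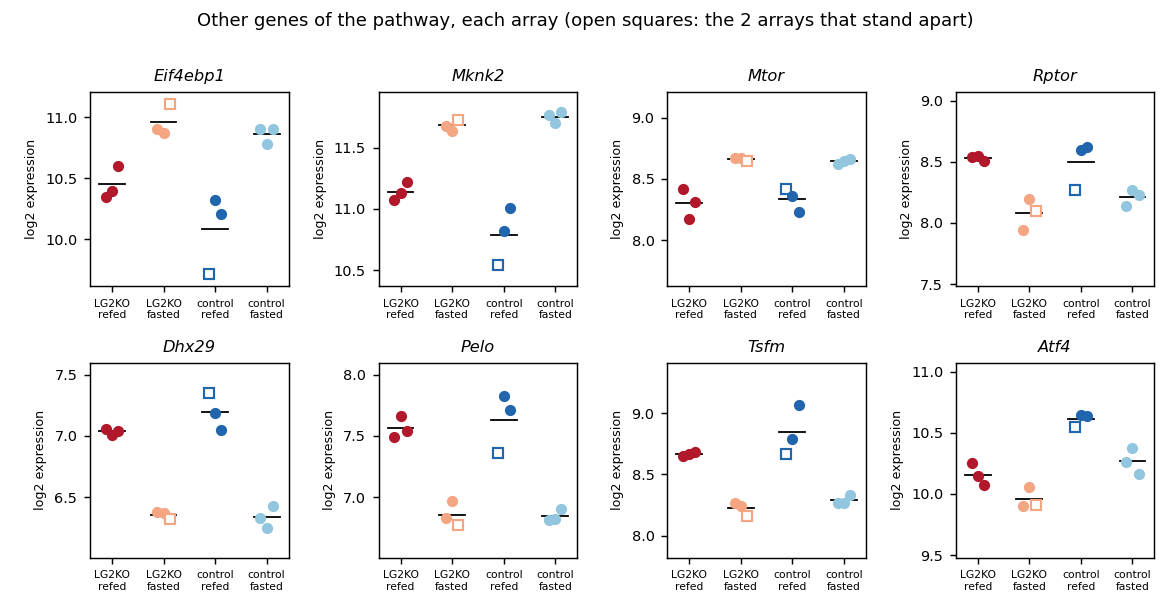
Log2 expression of 8 other genes of the pathway that passed in at least 1 comparison, with 1 point per pooled array, a bar at the mean of each group of 3, and open squares for control refed 1 and LG2KO fasted 3. Eif4ebp1 and Mknk2 lie lower and Dhx29, Pelo and Tsfm lie higher in refed than in fasted livers of both genotypes.

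Dhx29, a helicase that helps ribosomes scan structured leaders, rose by 0.68 ± 0.11 in LG2KO and by 0.86 ± 0.11 in control livers (adjusted p = 0.00218 and 0.000392). Pelo, which rescues stalled ribosomes, rose by 0.71 ± 0.13 and 0.79 ± 0.13 (adjusted p = 0.00565 and 0.00258). Tsfm, a mitochondrial elongation factor, rose by 0.44 ± 0.11 and 0.56 ± 0.11 (adjusted p = 0.0243 and 0.00697). In LG2KO livers Akt1s1, an mTOR inhibitor, rose by 0.40 ± 0.11 (adjusted p = 0.046), beside 0.02 ± 0.11 in control livers (adjusted p = 0.97). Eefsec, the selenocysteine elongation factor, rose by 0.38 ± 0.09 in LG2KO livers (adjusted p = 0.0242), beside 0.16 ± 0.09 in control livers (adjusted p = 0.434). For neither gene did the difference between the genotypes' changes pass (adjusted p = 0.9903 each). Between the genotypes none of the 54 passed in the fasted state (against 0.396% of all genes) and 1 passed after refeeding (against 0.379%). This was Atf4, the transcription factor translated when eIF2alpha is phosphorylated, given here by the brightest of its 3 probe sets only. It read 10.25, 10.15 and 10.07 in LG2KO refed livers, against 10.55, 10.65 and 10.64 in control refed livers, a difference of -0.45 ± 0.09 with no overlap (adjusted p = 0.0477). Without the pair of arrays it was -0.48 and did not pass (adjusted p = 0.0561), and in the fasted state it was -0.31 (adjusted p = 0.292). In control livers Atf4 rose by 0.35 ± 0.09 after refeeding (adjusted p = 0.0298).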

How the data were processed

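Liver RNA was hybridised to 12 Affymetrix mouse arrays. The deposited values are log2 expression per probe set, made with RMA per the submitters' processing notes (background correction, normalisation between arrays, summary of probes). No software version is stated in the labels. Of 45101 probe sets, 34958 had 1 symbol in the platform annotation, 932 had several and were not used, and 9211 were unnamed here. The probe set with the highest mean stood for each gene. RMA gives neither a background level nor saturation, and 3 arrays a group limit the precision.

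Differences were fitted in limma 3.58.1 (R 4.3.3) with 1 mean per group, all 12 arrays, an intensity trend and 8 residual degrees of freedom. The tests were two-sided, with Benjamini-Hochberg adjustment within each of 5 comparisons. The script was tested on simulated data with independent noise and no arrays that stood apart, unlike the data here. The genes, lists and tests were chosen with earlier results of these data known. Named genes are those passing plus set members of each role; a few others, changed without the 2 arrays or completing a group, were named after their values were seen. Deviations of same-numbered arrays from their group means were mixed (18 pairs, correlations -0.42 to 0.71, 5 over 0.1). The value of 0.71 was reached by LG2KO fasted 1 with control refed 1 and by LG2KO fasted 3 with control refed 3. Each of these includes 1 of the 2 arrays that stood apart. No pairing is stated in the labels, and a shared batch was not tested. The alternatives were 10 kinds of setting (21 fits), among them each array left out in turn. Figures used matplotlib 3.10.9 in Python 3.11.15.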

Additional observations from a re-analysis of the deposited data

Results flagged for a closer look

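Eif4ebp2 was the gene among the 57 whose refeeding difference pointed in opposite directions in the genotypes on every array: all LG2KO refed arrays lay above all LG2KO fasted arrays, and all control refed arrays lay below all control fasted arrays. The difference between the changes was 0.57 ± 0.14 (log2 ± SE, 95% interval 0.26 to 0.88, unadjusted p = 0.0016 in limma's test), with an adjusted p of 0.544 that did not pass and ranged from 0.108 to 1 over the alternatives. With 1 array left out in turn it was 0.47 to 0.63, and as the mean of its 5 probe sets 0.40. Of all 18194 genes, 61 (0.335%) showed such opposite separation after refeeding, and 157 (0.863%) showed it there or between genotypes.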

How the results depend on the processing

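Between the genotypes after refeeding, and in the interaction, limma called 0 genes under every alternative run (6 and 3 at an unadjusted p below 0.05 as reported). Between the genotypes in the fasted state it called 1 with array weights and 0 otherwise (2 at an unadjusted p below 0.05 as reported). After refeeding in LG2KO livers the reported count of 5 became 13 with array weights, 8 with the brighter 50% of genes and 16 without the 2 arrays that stood apart, and lay between 2 and 7 with 1 array left out (2 without LG2KO refed 2, LG2KO refed 3 or LG2KO fasted 1). After refeeding in control livers the reported count of 10 became 5 without the intensity trend, 16 with array weights, 4 with the mean over all probe sets, 6 with each array centred on its median, 16 without the 2 arrays and 0 with only the groups compared in the fit (20 at an unadjusted p below 0.05). With 1 array left out it lay between 0 and 12: 0 without control refed 2 (20 at an unadjusted p below 0.05), 1 without control refed 3 or control fasted 2, 2 without control fasted 1 or 3, 5 without LG2KO refed 1, 2 or 3 or LG2KO fasted 2, 6 without LG2KO fasted 1 and 12 without control refed 1. The cause of these shifts was not tested. With the replicate block the counts were 0, 0, 5, 9 and 0 in the 5 comparisons, and no pairing was assumed. Eif4b and Eif2b4 in LG2KO livers passed in all 21 alternatives, while Eef2 in control livers passed in 2 of 21. None of 26 differences refitted under every alternative changed sign. Over all 57 genes, leaving out the 2 arrays turned the sign of 10 differences between genotypes after refeeding, 10 in the fasted state, 7 after refeeding in LG2KO livers, 10 in control livers and 6 in the interaction, and 0 of these passed with or without the arrays. How far signal stood over background is unknown for RMA values.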
